A study of Canis lupus familiaris with 12 samples.

Results

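Solute carrier genes, which encode the largest family of membrane transporters, were taken from the deposited expression table as every gene whose symbol is SLC followed by a digit, so that the organic anion transporters named SLCO were left out. The rule found 209 of the 13672 listed genes. It used names only and no measured value. Of these, 204 entries name a transporter, in 42 families, and 5 are named after a transporter that they bind or regulate (SLC2A4RG, SLC4A1AP, SLC7A6OS, SLC9A3R1 and SLC9A3R2). One transporter entry, SLC5A3_1, is a second entry for SLC5A3. The values came from RNA-seq of MDCKII cells, a dog kidney epithelial line, with 3 libraries each of WT cells, of cells with a knockout (KO) of cingulin (CGN-KO), of paracingulin (CGNL1-KO), and of both (double-KO). Cingulin and paracingulin are cytoplasmic proteins of epithelial junctions. Each KO genotype was a single line made by CRISPR/Cas9, so that the genotype and the line it was measured in cannot be told apart. Nothing in the labels says that the libraries of a genotype came from separate cultures, and p-values then measure only the spread between these libraries, which may be technical. One double-KO library carries no replicate number in the table and is called unnumbered here.

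Solute carriers move ions, metals, sugars, amino acids, vitamins, nucleotides and metabolites across the plasma membrane and the membranes of organelles, either by facilitated diffusion or by coupling to a second solute, often sodium or protons. In the kidney tubule they are sorted to the apical or basolateral surface and carry out much of the reabsorption of the filtrate, many of them driven by the sodium gradient across the membrane. Some are regulated by the state of the cell: transporters of organic osmolytes are induced when the medium is hypertonic, and several amino acid transporters are targets of the transcription factor ATF4. The RNA level measured here says nothing of the amount, position or activity of the transporter protein.

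The libraries held 16837532 to 30086076 reads over the listed genes, and the groups overlapped in depth. The RNA of CGN was at 199 to 233 CPM (read counts scaled to a library of 1e+06 reads) in WT and 198 to 213 in CGNL1-KO, against 47.0 to 56.5 in CGN-KO and 39.7 to 45.3 in double-KO. That of CGNL1 was at 7.74 to 12.3 CPM in WT and 5.04 to 6.92 in CGN-KO, against 1.76 to 3.02 in CGNL1-KO, with 1.11 to 1.76 in double-KO. Each transcript was lowest in the lines labelled as its KO. CGNL1 also fell in CGN-KO, where it was not targeted, by 0.61 on the log2 scale (adjusted p = 0.02), and those libraries did not overlap WT. Markers of kidney epithelium were present in every library: CDH1 at 989 to 1350 CPM, EPCAM at 555 to 791, KRT8 at 1790 to 2110, KRT18 at 1210 to 1730 and PAX8 at 84.3 to 115, whereas CDH16, the kidney cadherin, lay at 0.828 to 5.14. Of 6 markers of other cells, VWF (endothelium) was at 0.107 to 0.945 CPM and the fibroblast, immune and other endothelial markers were not analysed here. In bulk RNA, fewer cells of one kind and less RNA per cell cannot be told apart.

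MDCKII cells expressed a broad range of solute carriers. The mean level in WT ran from 0.126 to 726 CPM with a median of 30.3, and 33 genes were above 100 CPM and 18 under 1 CPM. These are levels relative to all reads of a library and not per transcript length, so that they do not rank one transporter against another. The test needed more than 1 CPM in at least 3 libraries. It covered 195 of the 209 genes, among 12650 genes in all, and the median WT level of the tested carriers, 33.0 CPM, was near that of all tested genes, 31.5 CPM. The 14 untested carriers stayed at or under 1.48 CPM in every library.

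Few solute carriers changed by a factor of 2 or more, and many changed by less. A gene was called when its adjusted p (limma on log2(CPM + 1), Benjamini-Hochberg over all tested genes) was below 0.05 and its fold change was at least 2. In CGN-KO against WT 5 of 195 were called (2.56%, against 1.31% of all tested genes), 4 higher (0.98% of all genes) and 1 lower (0.332%). In CGNL1-KO 3 were called (1.54%, against 0.617%), all 3 higher (0.379%). None was called lower there (0.237% of all genes) by limma, with 14 members lower at an unadjusted p below 0.05 and 1 called lower by edgeR and by DESeq2. In double-KO 4 were called (2.05%, against 1.41%), 3 higher (0.767%) and 1 lower (0.64%). The 3 comparisons share the WT libraries and are not independent of each other.

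With the fold threshold set aside, the share of carriers that rose was above that of all tested genes in CGN-KO and double-KO, and in CGNL1-KO by an amount that depended on the libraries and the scaling. In CGN-KO 41 rose (21%, against 11.2% of all genes) and 17 fell (8.72%, against 7.87%). In CGNL1-KO 22 rose (11.3%, against 6.81%) and 6 fell (3.08%, against 3.49%). Scaling each library to its own total left 13 higher and 8 lower in CGNL1-KO, so that 61.9% of these carriers were higher in place of 78.6%. Under that scaling 6.67% of the carriers rose, against 5.38% of all genes. In double-KO 45 rose (23.1%, against 14.8%) and 25 fell (12.8%, against 11.5%). The median log2 fold change of the tested carriers was 0.03, 0.05 and 0.03 in the 3 lines, against medians of all genes between -0.0039 and -0.00036. The median size of the change, on the same scale and without its sign, was 0.14, 0.12 and 0.16 for the carriers and 0.12, 0.10 and 0.14 for all genes. In CGNL1-KO 11 rose without CGNL1-KO replicate 3 (5.64%, against 4.85% of all genes) and 12 without WT replicate 2 (6.15%, against 4.47%). There 3 fell (1.54%) without WT replicate 1 or without CGNL1-KO replicate 2, against 2.49% and 2.63% of all genes. In CGN-KO 11 fell without WT replicate 1 (5.64%, against 6.76% of all genes), so that the share of carriers was then the lower of the 2. Leaving out replicate 3 of every genotype lowered all of these counts. Then 21 rose (10.8%, against 5.49% of all genes) and 6 fell (3.08%, against 2.4%) in CGN-KO. CGNL1-KO had 4 that rose (2.05%, against 1.94%) and 1 that fell (0.513%, against 0.767%). Double-KO had 23 that rose (11.8%, against 6.78%) and 10 that fell (5.13%, against 3.65%).

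**Figure D1:**
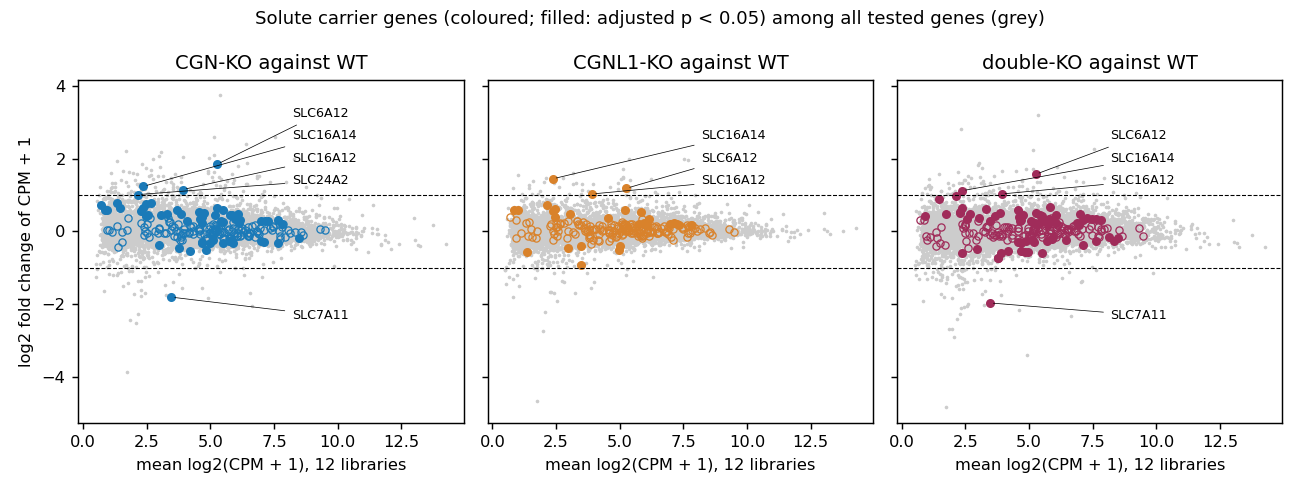
Log2 fold change of CPM + 1 against the mean log2(CPM + 1) over the 12 libraries, 1 panel for each KO line against WT, with the 195 tested solute carrier genes in colour (filled where the adjusted p was below 0.05) and all other tested genes in grey. Dashed lines mark a factor of 2; most carriers lie within them, and the named genes outside them are the 5, 3 and 4 called in the 3 lines.

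The largest rise in CGN-KO and in double-KO was that of SLC6A12, the sodium- and chloride-coupled transporter of betaine and GABA (BGT1), which takes up betaine as an organic osmolyte in the kidney medulla. Its level was 18.0, 14.3 and 16.5 CPM in the 3 WT libraries. It was 65.1, 61.9 and 56.5 CPM in CGN-KO, 41.6, 34.9 and 38.5 in CGNL1-KO, with 50.0, 48.9 and 52.1 in double-KO. All 9 KO libraries lay above the 3 WT libraries, and the 3 KO lines did not overlap each other, with CGN-KO highest and CGNL1-KO lowest. The log2 fold change was 1.85 ± 0.08 (SE) in CGN-KO (adjusted p = 4e-10), 1.19 in CGNL1-KO (1.6e-07) and 1.58 in double-KO (2.8e-09). Between the lines, limma gave a difference of 0.66 for CGN-KO against CGNL1-KO (adjusted p = 0.00013) and of 0.39 for double-KO against CGNL1-KO (0.0058), while double-KO against CGN-KO, at -0.27, missed the threshold (0.056). Of 6 genes listed for the osmotic response, 3 were tested: NFAT5, the transcription factor that drives it, AKR1B1, which makes sorbitol, and HSPA4L, an osmotic stress chaperone. They gave log2 fold changes between -0.19 and 0.11 in the 3 lines, with 0 of 3 below an unadjusted p of 0.05 in any line by limma, edgeR or DESeq2. The remaining 3 were not analysed here. SLC6A6, the taurine transporter and another osmolyte carrier, was at 200 to 227 CPM in WT and gave log2 fold changes of 0.20, 0.17 and 0.07, none past the threshold. The second entry of SLC5A3, the inositol transporter and a further osmolyte carrier, was at 1.41, 1.88 and 2.53 CPM in WT, and at 2.42, 3.19 and 3.61 in double-KO, which overlapped WT. It rose in double-KO (0.48, adjusted p = 0.034) and gave 0.36 in CGN-KO (0.13) and 0.03 in CGNL1-KO, not past the threshold.

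Both called members of the monocarboxylate transporter family were higher in all 3 lines. SLC16A12, a carrier of creatine, was at 8.07, 8.28 and 6.64 CPM in WT. Its values were 19.5, 17.2 and 18.1 in CGN-KO, 19.2, 15.2 and 15.9 in CGNL1-KO, with 16.6, 18.0 and 15.5 in double-KO. The 3 KO lines overlapped each other and lay wholly above WT, with log2 fold changes of 1.16, 1.03 and 1.03 (SE 0.10, adjusted p = 8.9e-07, 5.7e-06 and 2.3e-06). The value lay close to the 2-fold threshold: the call in CGNL1-KO was lost without WT replicate 3 or CGNL1-KO replicate 1, and the call in double-KO without WT replicate 3 or double-KO replicate 2, and both without replicate 3 of every genotype, with log2 fold changes down to 0.94.

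SLC16A14 belongs to the same family and was scarce in WT, at 1.41, 1.93 and 1.67 CPM (24, 35 and 35 reads). It was at 4.71, 5.48 and 5.79 CPM in CGN-KO, 6.21, 6.73 and 5.94 in CGNL1-KO, with 4.94, 5.06 and 4.42 in double-KO, or 89 to 149 reads a library. All KO libraries lay above all WT libraries. CGN-KO gave a log2 fold change of 1.24, CGNL1-KO one of 1.45, the largest rise of a carrier there, and double-KO one of 1.12 (SE 0.11, adjusted p = 1e-06, 3.4e-07 and 2.5e-06). Because 1 CPM was added before the logarithm, these values understate the change of so scarce a gene: edgeR or DESeq2 on the reads, or an added 0.1 CPM, gave values up to 1.65, 1.91 and 1.51. The more abundant lactate carriers of the family behaved otherwise. SLC16A1 (MCT1), at 248 to 268 CPM in WT, gave log2 fold changes of 0.03, 0.01 and 0.10, none past the threshold. SLC16A3 (MCT4) was at 31.1, 25.8 and 34.1 CPM in WT, 49.8, 38.6 and 36.9 in CGN-KO, 59.5, 36.8 and 44.1 in CGNL1-KO, with 26.4, 28.6 and 28.7 in double-KO. It rose in both single KO lines, by 0.45 (adjusted p = 0.04) and 0.59 (0.014), and double-KO lay below CGNL1-KO by a log2 difference of -0.70 (0.0037). BSG, the chaperone that brings both to the membrane, rose in all 3 lines, by 0.32, 0.20 and 0.35 on the log2 scale.

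SLC24A2, a potassium-dependent sodium/calcium exchanger (NCKX2), was at 1.71, 1.60 and 2.01 CPM in WT (29, 29 and 42 reads). It was at 4.85, 4.35 and 4.61 CPM in CGN-KO, 3.77, 3.07 and 3.91 in CGNL1-KO, with 3.92, 5.18 and 4.26 in double-KO, all above WT. It rose in all 3 lines (adjusted p = 1.8e-05, 0.00085 and 2.2e-05) and passed the 2-fold threshold only in CGN-KO, with log2 fold changes of 1.02, 0.72 and 0.97 (SE 0.12). The call in CGN-KO was lost without WT replicate 2 or CGN-KO replicate 1, at values down to 0.97, and no difference between the lines was called. With 0.1 CPM added, or by edgeR or DESeq2, it was also called in double-KO (1.28 to 1.31). DESeq2 called it in CGNL1-KO as well, at the threshold (log2 fold change 1, adjusted p = 0.000319).

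The strongest fall was that of SLC7A11 (xCT), the light subunit of the exchanger that imports cystine for glutamate and so feeds the synthesis of glutathione. It was at 28.0, 25.2 and 19.2 CPM in WT. It was at 6.76, 5.83 and 5.73 in CGN-KO, 17.1, 9.61 and 10.6 in CGNL1-KO, with 4.80, 5.40 and 5.89 in double-KO. Every KO library lay below every WT library, and CGNL1-KO lay between WT and the other lines, which overlapped. The log2 fold change was -1.81 ± 0.17 (SE) in CGN-KO (adjusted p = 1.4e-06) and -1.97 in double-KO (4.5e-07). In CGNL1-KO it was -0.93 (0.0017), under 2-fold. CGN-KO lay below CGNL1-KO by a log2 difference of -0.88 (0.0046) and double-KO by -1.04 (0.00067). The latter dropped under 2-fold with a replicate block, without CGNL1-KO replicate 1, or without the unnumbered double-KO library, with values between -1.21 and -0.81 over the settings tried. SLC3A2, the heavy subunit that SLC7A11 needs at the membrane, was at 48.4, 49.3 and 42.9 CPM in WT and gave log2 fold changes of -0.20, -0.05 and 0.03, none past the threshold. In the amino acid response, whose genes include known targets of ATF4, 1 of 14 tested genes rose (7.14%, against 11.2% of all tested genes) and 4 fell (28.6%, against 7.87%) in CGN-KO. In CGNL1-KO 3 fell (21.4%, against 3.49%), and in double-KO 1 rose (7.14%, against 14.8%) and 7 fell (50.0%, against 11.5%). The list was chosen with earlier results of these data known. TRIB3, a pseudokinase, fell in all 3 lines by 0.55, 0.32 and 0.58 on the log2 scale. ASNS, asparagine synthetase, fell by 0.46, 0.34 and 0.39. The genes of the list that rose were CEBPB in CGN-KO (0.55, adjusted p = 0.013) and ATF5 in double-KO (0.54, 0.0021). The log2 fold change of ATF4 itself was -0.04, 0.03 and -0.12, not past the threshold.

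**Figure D2:**
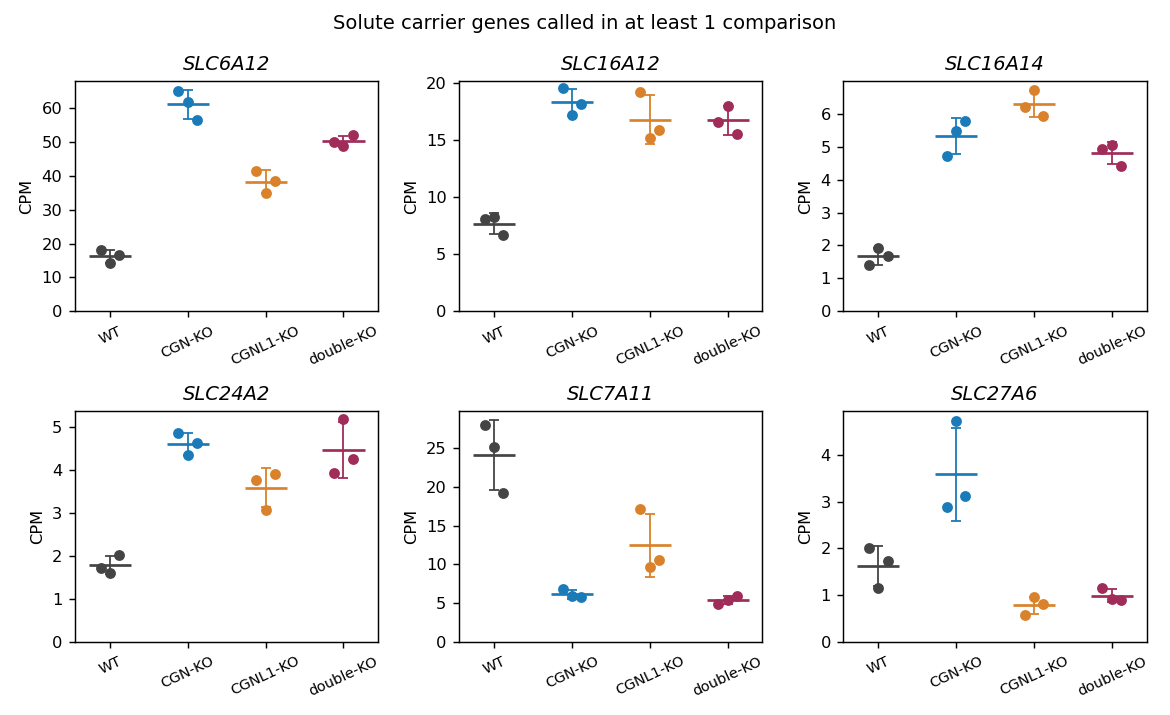
CPM of the 6 solute carrier genes called in at least 1 comparison, by genotype, on axes that start at 0. Points are libraries, bars the mean of 3 and whiskers the SD; the KO libraries lie above WT for SLC6A12, SLC16A12, SLC16A14 and SLC24A2 and below WT for SLC7A11, and SLC27A6 is high in CGN-KO.

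SLC27A6, which belongs to the fatty acid transport proteins, was the member whose lines parted most. It was at 2.0, 1.16 and 1.72 CPM in WT, 2.90, 4.74 and 3.13 in CGN-KO, 0.580, 0.948 and 0.803 in CGNL1-KO, with 1.16, 0.910 and 0.893 in double-KO, on 10 to 96 reads a library. CGN-KO lay wholly above the other groups and CGNL1-KO wholly below WT, while double-KO reached the lowest WT library. Against WT the log2 fold change was 0.80 in CGN-KO (adjusted p = 0.0028), -0.56 in CGNL1-KO (0.042) and -0.39 in double-KO (0.095). The difference of CGN-KO from CGNL1-KO was 1.35 (9e-05), and that of double-KO from CGN-KO was -1.19 (0.00038). Both were called, and were called under every one of the 19 alternatives. In that family of lipid carriers SLC27A3 rose in CGN-KO (0.55) and in double-KO (0.50), and its value in CGNL1-KO, 0.21, missed the threshold.

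Each direct comparison of KO lines called 1 carrier at 2-fold. In CGN-KO against CGNL1-KO 1 was called (0.648% of all tested genes), SLC27A6, and 15 of 195 passed at any fold (7.69%, against 5.19%). Libraries of the same number in these lines deviated together, a pairing read from the data, and the fit behind these values did not use it. The replicate block applied the numbers to all 4 genotypes, also to those whose numbers do not pair. It passed 26 carriers, for which no share of all genes is given here. A paired test of CGN-KO and CGNL1-KO alone was not run. Of the 15, 9 were higher and 6 lower in CGN-KO, or 11 and 3 with libraries scaled to their totals, so that the share higher was 60.0% or 78.6%. Without CGNL1-KO replicate 3 these counts were 3 and 3, without CGN-KO replicate 3 they were 7 and 3, and without CGNL1-KO replicate 1 they were 15 and 7. In double-KO against CGN-KO 1 was called (0.356%), again SLC27A6, and 13 passed at any fold (6.67%, against 8.84%). In double-KO against CGNL1-KO 1 was called (0.696%), SLC7A11, and 37 passed at any fold (19.0%, against 14.4%). With single libraries left out, the counts in double-KO against CGN-KO ran from 1 to 10 higher and from 4 to 11 lower, in place of 5 and 8, with 10 and 11 without CGNL1-KO replicate 1. Those in double-KO against CGNL1-KO ran from 6 to 17 higher and from 12 to 24 lower, in place of 16 and 21. For comparisons between KO lines, shares of all tested genes with libraries left out or rescaled are not given here. These counts therefore show only how the carrier counts moved, and not whether carriers moved more than other genes. The F test over the 4 genotypes found a difference for 80 of 195 carriers (41.0%, against 29.9% of all tested genes). Without replicate 3 of every genotype that number was 28. The share of all tested genes in that F test is not given here, and their shares against WT also dropped there. The fall in number is therefore not one of the carriers alone.

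**Figure D3:**
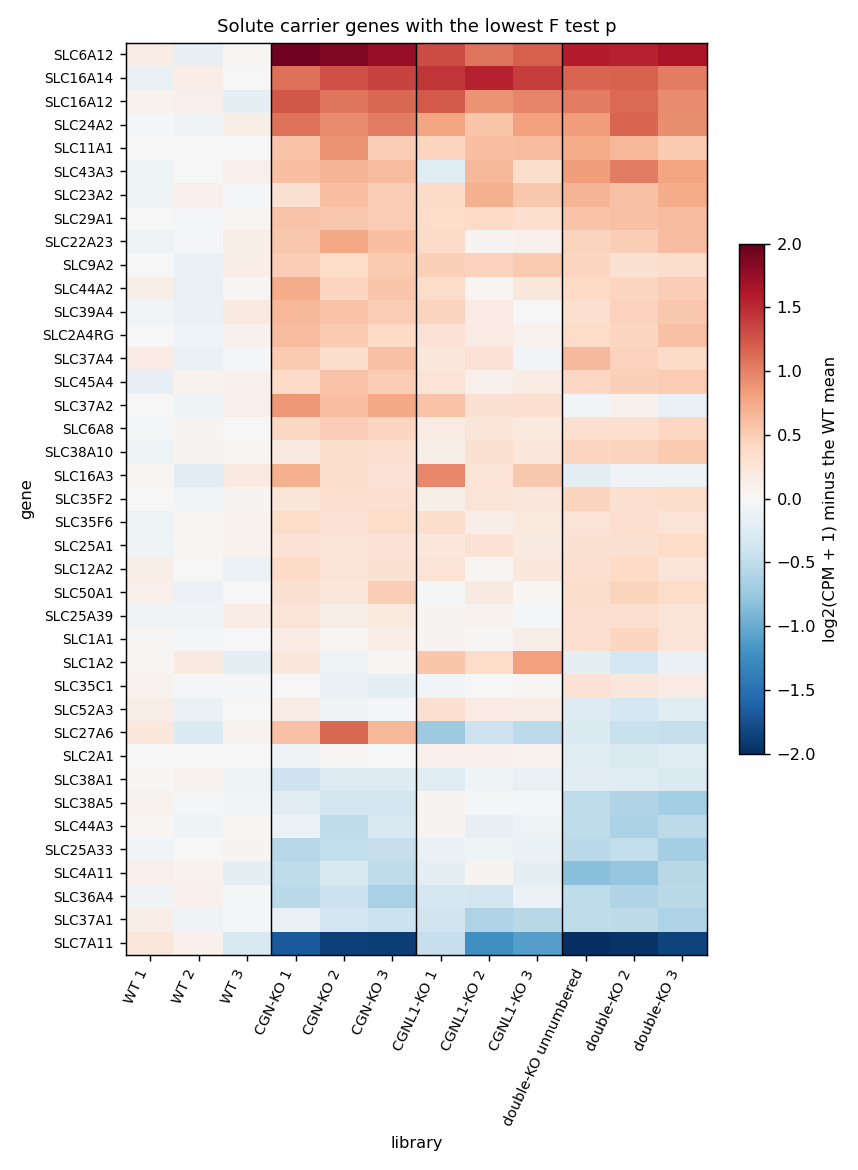
Log2(CPM + 1) minus the WT mean for 39 of the 40 solute carrier genes with the lowest p in the F test over the 4 genotypes (the other is not reported here), 1 column a library and 1 row a gene, red for higher and blue for lower on a scale from -2 to 2. SLC6A12 heads the genes that are higher in the 9 KO libraries and SLC7A11 closes those that are lower, with CGNL1-KO paler than the other lines for SLC6A12 and SLC7A11.

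The carriers were then read by what they transport, in classes set from the family number. The background for every class is the share of all tested genes, of which 11.2% rose and 7.87% fell in CGN-KO. The same shares were 6.81% and 3.49% for CGNL1-KO, and 14.8% and 11.5% for double-KO. A class is small beside it, and 1 gene can move its share by several percent. Among carriers of amino acids and peptides, 29 of 34 were tested. CGN-KO had 7 that rose (24.1%) and 6 that fell (20.7%), CGNL1-KO 5 (17.2%) and 2 (6.9%), and double-KO 6 and 6 (20.7% each). Beyond SLC6A12 and SLC7A11, SLC6A8, which takes up creatine, rose in all 3 lines. It was at 43.7 to 46.5 CPM in WT, 60.2 to 63.3 in CGN-KO, 50.5 to 53.4 in CGNL1-KO, with 56.0 to 60.0 in double-KO, with log2 fold changes of 0.44, 0.20 and 0.35, and the 3 lines lay wholly above WT. SLC38A5, a glutamine transporter, was at 55.0, 51.3 and 50.5 CPM in WT, 44.3, 40.4 and 40.4 in CGN-KO, 54.2, 51.6 and 51.0 in CGNL1-KO, with 36.4, 34.0 and 32.4 in double-KO. It fell in CGN-KO (-0.32, adjusted p = 0.0022) and in double-KO (-0.60, 4.9e-06), whereas CGNL1-KO gave 0.00 and overlapped WT. Double-KO lay below CGN-KO by -0.28 (0.012) and below CGNL1-KO by -0.60 (1.3e-05). The SLC38 family did not move one way. Of its 8 tested members, SLC38A1 and SLC38A2 also fell in CGN-KO (-0.31 and -0.30) and double-KO (-0.25 and -0.38), and SLC38A10 rose in all 3 lines (0.28, 0.21 and 0.47). SLC38A3 passed in CGN-KO (0.73), on 0.471, 0.055 and 0.287 CPM in WT and 1.35, 0.741 and 1.24 in CGN-KO. It met the filter only through KO libraries, so that it was tested because it was high there. The other members, SLC38A6, SLC38A7 and SLC38A9, passed in no line. In the SLC36 family of proton-coupled amino acid transporters, SLC36A4 fell in CGN-KO (-0.54) and double-KO (-0.55) while SLC36A1 rose in both (0.28 and 0.23). SLC7A5 (LAT1), which carries large neutral amino acids, fell in CGN-KO (-0.26, 0.024) and gave -0.15 and -0.12 elsewhere, neither past the threshold. SLC1A5 (ASCT2) passed the threshold in no line against WT.

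Among organic anion, cation and carboxylate carriers, 15 of 16 were tested, and 6 rose (40%) and 1 fell (6.67%) in CGN-KO. CGNL1-KO had 3 (20.0%) and 1 (6.67%), and double-KO 7 (46.7%) and 2 (13.3%). SLC22A23, an organic ion transporter-like protein, was at 27.3, 28.4 and 32.3 CPM in WT and 42.7, 50.6 and 44.8 in CGN-KO, which did not overlap. It was at 38.5, 30.5 and 31.1 CPM in CGNL1-KO and 40.3, 41.7 and 45.4 in double-KO. It rose by 0.63 in CGN-KO and 0.52 in double-KO, and its 0.18 in CGNL1-KO, which overlapped WT, missed the threshold. CGN-KO lay above CGNL1-KO by 0.46 (adjusted p = 0.0072).

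Of 24 tested carriers of inorganic ions, bicarbonate and protons, 5 rose (20.8%) and 1 fell (4.17%) in CGN-KO. CGNL1-KO had 4 that rose (16.7%), and double-KO 7 that rose (29.2%) and 3 that fell (12.5%). SLC12A2 (NKCC1), the basolateral sodium-potassium-chloride cotransporter, was at 187, 170 and 158 CPM in WT. It was at 224, 207 and 211 in CGN-KO, 208, 176 and 197 in CGNL1-KO, with 217, 227 and 204 in double-KO. It rose in CGN-KO (0.32, adjusted p = 0.0048) and in double-KO (0.33, 0.0026), and CGNL1-KO overlapped WT (0.17, 0.15). SLC9A2 (NHE2), a sodium/proton exchanger, was at 4.97 to 6.16 CPM in WT and 7.05 to 8.44 in the KO lines, and rose by 0.47, 0.49 and 0.36. SLC4A11, a plasma membrane carrier of the bicarbonate transporter family, was at 17.3, 17.1 and 14.2 CPM in WT, 11.1, 12.7 and 11.0 in CGN-KO, 14.0, 16.8 and 14.2 in CGNL1-KO, with 8.57, 8.99 and 10.6 in double-KO. It fell by 0.45 in CGN-KO and 0.73 in double-KO, and CGNL1-KO, at -0.10, overlapped WT. SLC4A7, a sodium bicarbonate cotransporter, rose in double-KO (0.23, 0.024). SLC4A2 (AE2), which exchanges chloride for bicarbonate, and SLC20A1 (PiT1), which takes up phosphate, passed the threshold in no line.

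Sugar and other sodium-coupled solute carriers numbered 14 tested of 16, with 5 higher (35.7%) and 1 lower (7.14%) in CGN-KO. CGNL1-KO had 1 higher (7.14%), and double-KO 4 higher (28.6%) and 3 lower (21.4%). SLC2A1 (GLUT1), the main glucose transporter of many cell lines, was at 331, 330 and 331 CPM in WT, 315, 336 and 329 in CGN-KO, 354, 355 and 349 in CGNL1-KO, with 281, 271 and 280 in double-KO. Double-KO lay below all other libraries, and the fall against WT was small at -0.25 (adjusted p = 0.00069). CGN-KO and CGNL1-KO gave -0.02 and 0.09, not past the threshold. SLC45A4 rose in CGN-KO (0.49) and double-KO (0.47), as did SLC50A1, a sugar exporter (0.34 and 0.39). SLC5A6, the sodium-dependent multivitamin transporter, fell in CGN-KO (-0.19) and double-KO (-0.17), from 381 to 387 CPM in WT to 336 to 338 and 335 to 349. The first entry of SLC5A3 was under the filter.

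Among 28 tested carriers of nucleosides and nucleotide sugars, 6 rose (21.4%) and 1 fell (3.57%) in CGN-KO. CGNL1-KO had 4 (14.3%) and 1 (3.57%), and double-KO 6 (21.4%) and 2 (7.14%). SLC29A1 (ENT1), the equilibrative nucleoside transporter, was at 17.1, 16.6 and 17.6 CPM in WT. It was at 25.8, 25.2 and 24.8 in CGN-KO, 22.3, 22.7 and 21.8 in CGNL1-KO, with 26.0, 26.3 and 26.7 in double-KO. The 4 groups did not overlap, and the rise was 0.54, 0.36 and 0.59 on the log2 scale (adjusted p = 1.6e-05, 0.0012 and 4.7e-06). SLC37A1 and SLC37A2, sugar phosphate exchangers of the endoplasmic reticulum that were placed in this class by family number, moved apart. SLC37A1 fell in all 3 lines (-0.32, -0.52 and -0.55). SLC37A2 rose in CGN-KO (0.75) and CGNL1-KO (0.40), gave -0.04 in double-KO, and lay lower in double-KO than in CGN-KO by -0.79 (0.00058).

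Mitochondrial carriers, the SLC25 family and its like in the inner membrane, numbered 37 tested of 38. Of these, 3 rose and 3 fell in CGN-KO (8.11% each), 1 rose in CGNL1-KO (2.7%), and double-KO had 5 that rose and 5 that fell (13.5% each). These shares lay near or under those of all tested genes. SLC25A33, a pyrimidine nucleotide carrier, was at 33.1, 34.1 and 35.6 CPM in WT, 22.7, 23.9 and 24.7 in CGN-KO, 31.1, 32.4 and 31.3 in CGNL1-KO, with 23.2, 24.0 and 21.3 in double-KO. It fell by 0.51 in CGN-KO and 0.57 in double-KO, and the value in CGNL1-KO, -0.11, missed the threshold. CGN-KO lay below CGNL1-KO by -0.39 (adjusted p = 0.0017). SLC25A1, the citrate carrier, rose in all 3 lines (0.28, 0.23 and 0.33). SLC25A5, an ADP/ATP carrier and among the more abundant at 394 to 445 CPM in WT, passed the threshold in no line.

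Carriers of metals, 26 tested of 27, gave 2 higher (7.69%) and 1 lower (3.85%) in CGN-KO. CGNL1-KO had 2 higher (7.69%), and double-KO 6 higher (23.1%) and 1 lower (3.85%). SLC11A1 (NRAMP1), a divalent metal transporter known from macrophage phagosomes, was at 2.77, 2.7 and 2.72 CPM in WT and at 4.01 to 5.97 in the KO lines, and rose by 0.66, 0.55 and 0.64. SLC39A4, a zinc importer, rose in CGN-KO (0.58) and double-KO (0.44). SLC11A2 (DMT1), SLC30A1, which exports zinc, and SLC40A1 (ferroportin), which exports iron, passed the threshold in no line. Carriers of vitamins and choline, 12 tested of 13, gave 4 higher (33.3%) and 2 lower (16.7%) in CGN-KO. CGNL1-KO had 2 higher (16.7%), and double-KO 2 and 2 (16.7% each). SLC23A2 (SVCT2), which takes up ascorbate, was at 39.0, 44.7 and 41.0 CPM in WT, 51.5, 63.3 and 58.5 in CGN-KO, 54.6, 68.9 and 60.7 in CGNL1-KO, with 67.4, 62.8 and 70.1 in double-KO. It rose in all 3 lines, by 0.46, 0.55 and 0.67, and lies on the chromosome that holds MYL9, which is described below. In the choline transporter-like family SLC44A2 rose in CGN-KO (0.58) and double-KO (0.44) while SLC44A3 fell in both (-0.32 and -0.55). SLC17A5, the lysosomal sialic acid exporter and the tested member of its class, fell in CGN-KO (-0.22) and double-KO (-0.23). Of the 5 genes named after a partner, SLC2A4RG, on the same chromosome as SLC23A2, rose in CGN-KO (0.51) and double-KO (0.46). SLC9A3R2, a scaffold also known as NHERF2, fell in CGNL1-KO (-0.40).

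**Figure D4:**
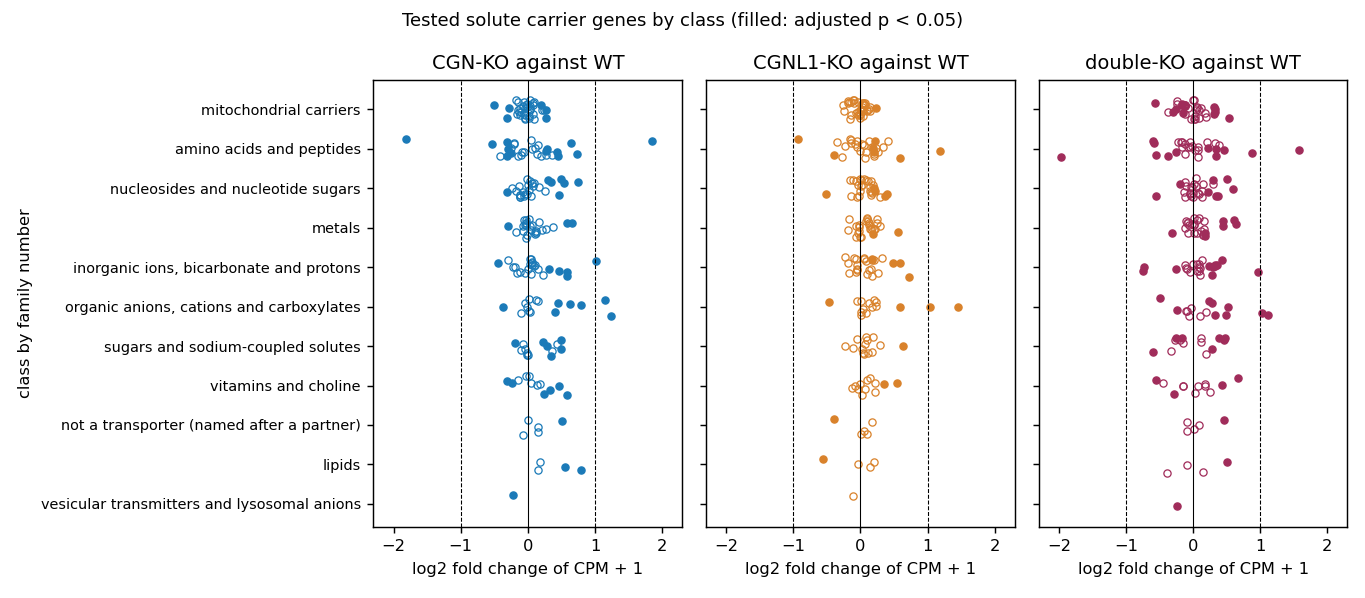
Log2 fold change of CPM + 1 against WT for each tested solute carrier gene, by class from its family number and in 1 panel for each KO line, filled where the adjusted p was below 0.05. Dashed lines mark a factor of 2; the genes outside them are in the classes of amino acids, inorganic ions and organic anions, and the 37 mitochondrial carriers all lie within them.

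Of a list of 45 transporters well known in kidney epithelium, 22 were analysed and 21 tested. In CGN-KO 4 rose (19.0%, against 11.2% of all tested genes) and 2 fell (9.52%, against 7.87%). CGNL1-KO had 3 (14.3%, against 6.81%) and 1 (4.76%, against 3.49%), and double-KO 6 (28.6%, against 14.8%) and 2 (9.52%, against 11.5%). The members SLC6A12 and SLC7A11 are among these. Among 11 regulators of carriers and channels in the WNK and SGK pathway, 1 rose and 1 fell in CGN-KO (9.09% each, against 11.2% and 7.87% of all tested genes). CGNL1-KO had 1 that rose (9.09%, against 6.81%), and double-KO 3 that rose and 3 that fell (27.3% each, against 14.8% and 11.5%). SGK1, a kinase that raises the surface level of several carriers, was at 158 to 171 CPM in WT, 279 to 281 in CGN-KO, 207 to 221 in CGNL1-KO, with 273 to 282 in double-KO, and rose by 0.77, 0.39 and 0.76. WNK4, a kinase that acts on the cation-chloride cotransporters, was called lower in double-KO (-1.30, 6.1e-05), at 3.1, 4.72 and 4.75 CPM against 12.6, 12.5 and 9.99 in WT.

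The position of the carriers was read from the RefSeq annotation of dog assembly UU_Cfam_GSD_1.0, which placed 205 of the 209 genes. In double-KO against WT, all tested genes on the chromosome that holds MYH14 had a median log2 fold change of 0.20 and those on the chromosome that holds CTNND1 one of 0.30. The 10 tested carriers on these chromosomes had a median of 0.21. Of these, 4 rose (SLC1A1, SLC35C1, SLC43A3 and SLC39A13, by 0.35, 0.23, 0.88 and 0.44), and 0 fell, also at an unadjusted p below 0.05 and by edgeR or DESeq2. SLC43A3 was scarce, at 0.884, 0.994 and 1.15 CPM in WT and 2.57, 3.07 and 2.48 in double-KO. It met the filter only with KO libraries, which favours its being counted as a rise. The 185 other tested carriers, which include those on the chromosome that holds MYL9 and those with no position, had a median of 0.02, with 41 higher and 25 lower. Of all tested genes 14.8% rose and 11.5% fell in double-KO. With 10 genes, none falling is not far from that share. The chromosome that holds MYL9 was also shifted upwards. All tested genes on it had medians of 0.19, 0.20 and 0.14 in the 3 lines against WT. Its 6 tested carriers had medians of 0.04, 0.19 and -0.05, and in double-KO 2 of them rose and 2 fell. SLC23A2 and SLC2A4RG, reported above as rises, lie there, as does SLC4A11, which fell. The part of the chromosome in these values was not tested, and none of the 6 genes called in any comparison lies on the chromosomes named here.

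**Figure D5:**
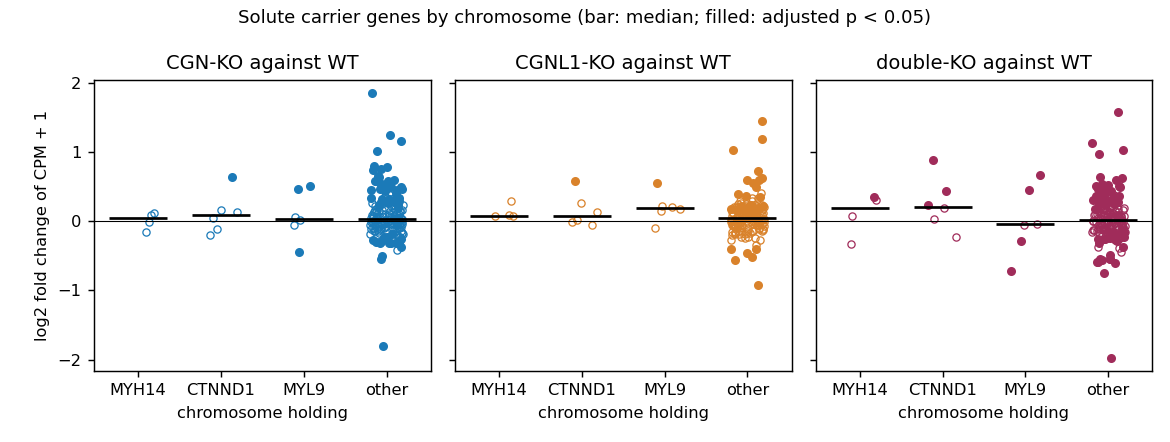
Log2 fold change of CPM + 1 against WT for the tested solute carrier genes on the chromosomes that hold MYH14 (4 genes), CTNND1 (6) and MYL9 (6) and on all others (175), in 1 panel for each KO line. Bars are medians and filled points passed at an adjusted p below 0.05; in double-KO the medians on the chromosomes of MYH14 and CTNND1 are 0.19 and 0.21. The 4 tested genes with no position are not drawn.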

How the data were processed

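Values of 12 RNA-seq libraries of MDCKII cells (4 genotypes, 3 libraries each) were read from 1 deposited table of 13672 genes. The authors aligned reads with STAR 2.7.0f, counted them per gene with HTSeq 0.9.1 and deposited CPM scaled by edgeR's TMM factors, a normalized signal whose columns do not sum to 1e+06. The annotation release and the strand setting are not given in the sources used here. Every value was a whole multiple of 1 read (tolerance 0.1 read), so that the deposited signal gave back read counts of 16837532 to 30086076 a library. Carriers with few reads are the least precise.

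From these values, log2(CPM + 1) of the 12650 genes above 1 CPM in at least 3 libraries was fitted with limma 3.58.1 (R 4.3.3; lmFit and eBayes with trend, 12 libraries and 4 genotypes in 1 fit), with Benjamini-Hochberg adjustment over all of them. A gene was called at adjusted p below 0.05 and at least 2-fold. Fold changes are on this scale and understate those of low genes. Members, classes and companion lists were chosen with earlier results of these data known. Named are called members whose groups do not overlap, members of the kidney list, companions that passed, and, chosen after their values were seen, up to 4 members per class with the lowest F test p that passed and a few that moved together. Naming by level per coding length was planned and not done, since no lengths were at hand.

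Alternatives were edgeR 4.0.16 and DESeq2 1.42.0 on the recovered reads, an added 0.1 CPM, no filter, scaling to totals, a replicate block (11 numbered libraries) and each library left out. Leaving out replicate 3 of every genotype was added after seeing the data. Between CGN-KO and CGNL1-KO, libraries of the same number deviated together from their group means (correlation across genes 0.632, 0.475 and 0.179). This pairing was read from the data. Libraries of the other groups were not taken as pairs (-0.235 to 0.373, with at least 1 pair under 0.1 each). The main fit used no pairing. The replicate block applied the numbers to all 4 genotypes, and CGN-KO and CGNL1-KO were not tested as pairs on their own. A few genes enter the counts but are not reported here by name. Fits were tested on simulated data.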

Additional observations from a re-analysis of the deposited data

Results flagged for a closer look

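Differences between KO lines were called for 2 carriers by limma's direct test of the difference, in which WT is not one of the groups compared. SLC27A6 differed between CGN-KO and CGNL1-KO by 1.35 (log2, adjusted p = 9e-05; the 3 CGN-KO libraries at 2.90 to 4.74 CPM, the 3 CGNL1-KO libraries at 0.580 to 0.948), and between double-KO and CGN-KO by -1.19 (0.00038; double-KO at 0.893 to 1.16 CPM). SLC7A11 differed between double-KO and CGNL1-KO by -1.04 (0.00067; 4.80 to 5.89 against 9.61 to 17.1 CPM). CGNL1-KO replicate 1 held the highest SLC7A11 value of its group, and without it this difference was under 2-fold.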

How the results depend on the processing

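An added 0.1 CPM, edgeR and DESeq2 each called 10 carriers in CGN-KO against WT in place of 5. In CGNL1-KO edgeR called 6 and DESeq2 7 in place of 3, and in double-KO edgeR called 7 in place of 4. The shares of all tested genes called under these settings are not given here. These counts therefore show only how the carrier calls moved and not whether carriers gained more than other genes. The added genes were scarce (SLC27A6, SLC38A3, SLC43A3, SLC4A3 and SLC4A9 in CGN-KO). Of these, SLC38A3, SLC4A3 and SLC4A9 were under 1 CPM in every WT library. They met the filter only through KO libraries, where they were higher, which favours their being counted as rises. The same holds for SLC43A3, at 0.884, 0.994 and 1.15 CPM in WT, which did not meet the filter without KO libraries. DESeq2 called 2 in CGN-KO against CGNL1-KO in place of 1. In double-KO against CGNL1-KO the 3 settings called 2 in place of 1 and the replicate block none (SLC7A11 at -0.81), where 39 carriers passed at any fold; the cause was not tested. With single libraries left out, or replicate 3 of every genotype, 4 to 5 were called in CGN-KO, 2 to 3 in CGNL1-KO, 3 to 5 in double-KO, 1 to 2 in CGN-KO against CGNL1-KO and 0 to 1 in double-KO against CGNL1-KO. The F test passed 28 to 90 carriers in place of 80, with 28 when replicate 3 of every genotype was left out. Shares of all tested genes are not given here for these calls and F tests, so that they too show only how the carrier counts moved. The block moved counts at any fold from 58 to 80 in CGN-KO and from 28 to 43 in CGNL1-KO, where the numbers do not pair the libraries with WT, and turned no direction. The shares of all tested genes grew with it as well. In CGN-KO they went from 11.2% to 14.8% higher and from 7.87% to 12.3% lower. In CGNL1-KO they went from 6.81% to 9.22% higher and from 3.49% to 5.78% lower. Among 134 results for single genes, 2259 of 2546 values kept their direction and side of the threshold, 287 missed the threshold and 0 reversed; 74 of the 287 came from leaving out replicate 3 of every genotype.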

Other observations

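Transporters outside the solute carriers, the ABC family, which pumps substrates at the cost of ATP, gave 8 higher (29.6%, against 11.2% of all tested genes) and 5 lower (18.5%, against 7.87%) of 27 tested in CGN-KO. CGNL1-KO had 4 (14.8%, against 6.81%) and 3 (11.1%, against 3.49%), and double-KO 5 (18.5%, against 14.8%) and 3 (11.1%, against 11.5%). ABCB1, the multidrug exporter P-glycoprotein, was at 78.6 to 87.0 CPM in WT and 48.8 to 59.9 in the KO lines, and fell in all 3 (-0.53, -0.64 and -0.69). ABCC4, an exporter of cyclic nucleotides and organic anions, was at 43.1 to 47.1 CPM in WT and 57.6 to 74.1 in the KO lines, and rose in all 3 (0.57, 0.39 and 0.64). ABCA1, which exports cholesterol, was called higher in CGN-KO (1.08, adjusted p = 0.00024), at 6.76, 4.10 and 4.78 CPM against 2.36, 1.44 and 1.96 in WT. Among 4 tested aquaporins, 1 fell in CGNL1-KO (25%, against 3.49% of all tested genes) and 2 in double-KO (50%, against 11.5%). Of the 4 tested SLCO genes, 1 rose and 1 fell in CGN-KO, and 1 fell in each of the other lines (25% each time, against the same shares of all tested genes).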
